A study of Trichoderma asperellum with 12 samples.

Results

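Chitin and 1,3-beta-glucan are the fibres that give the wall of a filamentous fungus its strength, and both are spun at the plasma membrane by the enzymes described here. Chitin synthases join N-acetylglucosamine units taken from UDP-N-acetylglucosamine, and a filamentous fungus carries several of them, of different classes. Some of these classes bear a myosin motor-like domain and act at growing hyphal tips. The 1,3-beta-glucan synthase, of glycosyltransferase family 48, takes glucose from UDP-glucose.

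The genes were chosen from the deposited annotation of Trichoderma asperellum, a soil fungus used in biological control, as those whose first KEGG orthology description holds "chitin synthase" or "1,3-beta-glucan synthase". The rule found 12 of 11647 genes. Of these, 8 are described as chitin synthases and 4 as 1,3-beta-glucan synthases. Expression was given by the authors as FPKM, a unit that corrects fragment numbers for gene length and for library size, which allows levels of different genes to be compared per length.

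Strain TJ01 was grown from spores for 24 h and then kept for another 24 h in Burk broth, a nitrogen-poor medium, with shaking at 180 rpm and a temperature of 28 °C. The broth held 100 μg/mL (D1), 500 μg/mL (D5) or 1000 μg/mL (D10) of dichlorvos, an organophosphorus insecticide, or none of it (CK). Each of the 4 groups has 3 libraries, 12 in all. The study's methods say that experiments were repeated, but neither they nor the labels say whether the libraries of a group came from separate cultures, so p-values measure only the spread between these libraries, which may be technical. Fewer cells of a type and less RNA per cell cannot be told apart in such bulk samples. The search for conidial genes, conidia being the other cell type that such cultures could hold, matched 0 genes by description, so the mycelial identity could not be checked in this way.

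One control library stood apart from the rest. The correlation of log2(FPKM + 1) of CK replicate 1 with CK replicates 2 and 3 was 0.897 and 0.895, against 0.984 between those 2 libraries and at least 0.970 within every treated group. Its median FPKM over the 8916 genes tested was 25.7, against 15.2 and 16.4 in CK replicates 2 and 3, and 18.1 to 23.6 in the treated libraries. Its relative depth, estimated from the smallest values, was 0.829 of that of CK replicate 2, while the other libraries lay between 0.975 and 1.03. This is a rough estimate. For CK replicate 1 it rests on 143 low genes assumed to hold 1 fragment in each library, with ratios far from 1 left out. Results against CK are therefore given with all 12 libraries and again without CK replicate 1. The median log2 fold change of all genes tested was 0.02 for D1, 0.10 for D5 and 0.18 for D10 against CK, and 0.20, 0.28 and 0.37 without CK replicate 1, so the values of single genes stand against a shifted background. Centring each library on its median changed the split of the D10 calls over all genes to 1746 higher and 2024 lower, against 2168 higher and 1175 lower as deposited.

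The description fitted the 8 chitin synthases, whose KEGG bit scores were 959 to 3204 and whose best protein matches were named glycosyltransferase family 2. Among the 4 glucan synthase genes only jgi_Trias1_147626 had a strong match, with a bit score of 3341 and a best protein match named glycosyltransferase family 48. The other 3 had bit scores of 132 (jgi_Trias1_26288), 100 (jgi_Trias1_85130) and 84.3 (jgi_Trias1_70349), and their best protein matches were hypothetical proteins. The annotation thus does not support the synthase name for these 3 genes, which are called here by their identifiers. The split by a bit score of 1000 for the glucan synthase genes was made after the annotation was read.

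A few genes carried most of the synthase transcripts. The chitin synthase jgi_Trias1_55848 had the highest mean FPKM over the 12 libraries, 364, and ranked 505th of all genes. The chitin synthases jgi_Trias1_140507 and jgi_Trias1_24930 followed with 313 and 288 FPKM, and the glucan synthase jgi_Trias1_147626 with 204 FPKM. The chitin synthases jgi_Trias1_23020, jgi_Trias1_27521 and jgi_Trias1_194925 averaged 50.5, 42.1 and 23.5 FPKM, and jgi_Trias1_135528 averaged 8.90 FPKM. The gene jgi_Trias1_26288 averaged 75.1 FPKM, while jgi_Trias1_85130 and jgi_Trias1_70349 averaged 3.53 and 2.52 FPKM. The remaining chitin synthase, jgi_Trias1_41881, was listed at 0 in 11 libraries and at 0.09 FPKM in D10 replicate 2. It was the only one of the 12 genes below the filter of a mean FPKM of 1, so 11 genes were tested.

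**Figure D1:**
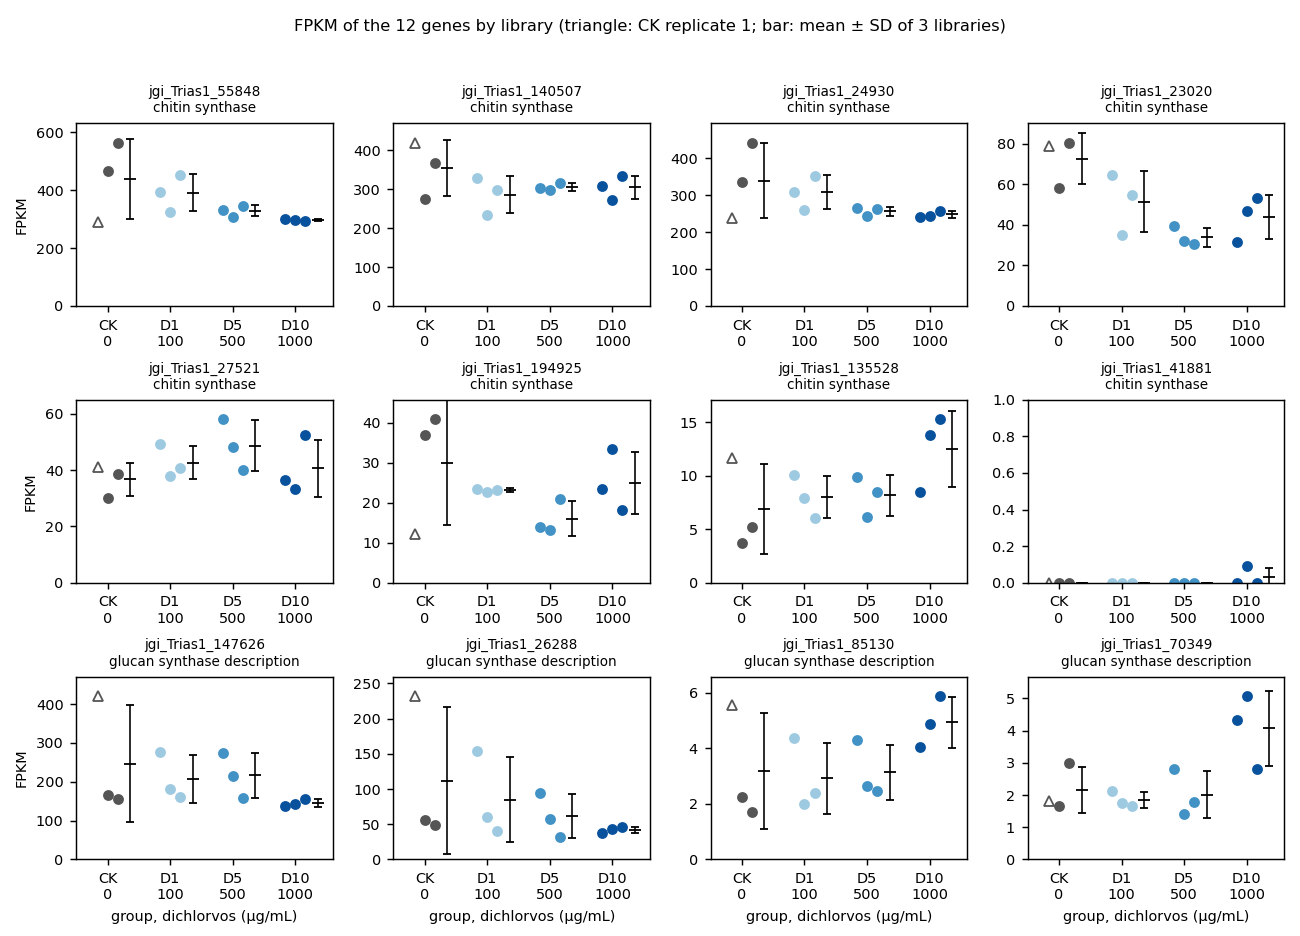
FPKM (linear axis from 0, scaled for each gene) of the 12 genes in each library of CK, D1, D5 and D10 (0, 100, 500 and 1000 μg/mL dichlorvos), with the mean and SD of the 3 libraries of a group as a bar. The triangle is CK replicate 1, which at 290.81 FPKM is the lowest library for jgi_Trias1_55848 and at 420.28 FPKM the highest for jgi_Trias1_147626.

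The chitin synthase jgi_Trias1_23020 was the only one of the 11 genes that changed over all 12 libraries. In order of dose, its FPKM was 78.97, 58.05 and 80.59 in CK, 64.82, 35.20 and 54.58 in D1, 39.37, 31.86 and 30.40 in D5, and 31.79, 46.82 and 53.04 in D10. Every D5 and D10 library lay below every CK library, while D1 overlapped CK. The gene averaged 33.9 ± 4.8 FPKM in D5 and 72.5 ± 12.6 FPKM in CK (SD, n = 3 each), a log2 fold change of -1.07 (SE 0.27, adjusted p = 0.013, limma). In D10 it averaged 43.9 ± 10.9 FPKM (SD, n = 3), a log2 fold change of -0.73 against CK (SE 0.27, adjusted p = 0.046). The D1 value was -0.51 (adjusted p = 0.347). Without CK replicate 1 the D5 value was -1.002 (adjusted p = 0.012) and the D10 value was -0.66 (adjusted p = 0.059), a similar size on the other side of the threshold. With the libraries centred on their medians the D10 value was -0.99 (adjusted p = 0.00758), and -1.14 when CK replicate 1 was also left out (adjusted p = 0.00234). The D10 call was also lost without CK replicate 3, D1 replicate 3, any single D5 library, D10 replicate 1 or D10 replicate 2, with adjusted p between 0.0549 and 0.182 over all settings that lost it. The D5 call was lost without D5 replicate 2 (adjusted p = 0.0525) or D5 replicate 3 (adjusted p = 0.0508).

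Counted over the 11 genes, limma called 0 higher and 0 lower in D1 against CK, where 5.26% of all genes tested were called higher and 1.02% lower. In D5 against CK it called 0 higher and 1 lower, beside 13.5% higher and 7% lower among all genes. In D10 against CK it called 0 higher and 1 lower, beside 24.3% higher and 13.2% lower among all genes. Without CK replicate 1 the counts were 0 in D1 (13.5% of all genes higher, 3.32% lower), 4 lower in D5 (29.4% higher, 12% lower) and 2 higher with 3 lower in D10 (38.3% higher, 16.3% lower). An F-test over the 4 groups called 1 of the 11 genes, beside 34% of all genes, and 5 without CK replicate 1, beside 56.9%. At an unadjusted p under 0.05, 0 of the 11 genes passed in D1 (18.4% of all genes), 1 in D5 (32.9%) and 4 in D10 (46.4%) against CK. These counts were 3 (31.7%), 5 (49.9%) and 6 (59.9%) without CK replicate 1. With the added demand of more than 2-fold the counts were 0 in D1 (4.6% of all genes higher, 0.538% lower), 1 lower in D5 (10.6% higher, 3.48% lower) and 0 in D10 (19.2% higher, 7.81% lower). The NOISeq rule, which sets a change against the spread of replicate pairs, called 0 of the 12 genes in D1 (0.464% of all genes higher, 0.112% lower), D5 (1.31% higher, 0.283% lower) and D10 (3.01% higher, 0.996% lower). Centring the libraries on their medians gave 0 higher and 2 lower in D10 (19.6% of all genes higher, 22.7% lower). Centring them and leaving out CK replicate 1 gave 3 lower in D1 (7.27% higher, 10.8% lower), 4 lower in D5 (15.7% higher, 23.5% lower) and 1 higher with 6 lower in D10 (23.3% higher, 30.6% lower). The median log2 fold change of the 11 genes was -0.13 in D1, -0.19 in D5 and -0.20 in D10, as a description, and -0.17, -0.06 and -0.14 without CK replicate 1.

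The chitin synthases jgi_Trias1_55848 and jgi_Trias1_24930 both carry the terms actin cytoskeleton and nucleoside-triphosphatase activity, terms that fit chitin synthases with a myosin motor-like domain, and they are called the motor pair here. The domain itself was not looked up. This grouping was made after the annotation was read. In order of dose, jgi_Trias1_55848 had 290.81, 464.80 and 564.44 FPKM in CK, 393.45, 325.41 and 453.75 in D1, 331.74, 308.13 and 347.13 in D5, and 299.35, 296.40 and 293.56 in D10. The 3 D10 libraries lay close together, above CK replicate 1 and below CK replicates 2 and 3. The log2 fold change in D10 against CK was -0.52 (SE 0.23, adjusted p = 0.094), and -0.79 without CK replicate 1 (SE 0.16, adjusted p = 0.00132). In D5 it was -0.37 (adjusted p = 0.300), and -0.64 without that library (adjusted p = 0.00788).

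Its partner jgi_Trias1_24930 had 239.01, 337.23 and 442.94 FPKM in CK, 310.31, 260.66 and 353.01 in D1, 264.47, 242.73 and 263.91 in D5, and 242.43, 243.85 and 258.40 in D10. The order of the libraries was much the same as for jgi_Trias1_55848, with CK replicate 3 highest and CK replicate 1 lowest. The log2 fold change in D10 against CK was -0.41 (SE 0.21, adjusted p = 0.156), and -0.64 without CK replicate 1 (SE 0.16, adjusted p = 0.00585). In D5 it was -0.36 (adjusted p = 0.281), and -0.59 without that library (adjusted p = 0.0134). The ratio of jgi_Trias1_55848 to jgi_Trias1_24930 stayed between 1.14 and 1.38 in all 12 libraries, although each gene varied up to 1.94-fold and 1.85-fold between libraries.

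**Figure D2:**
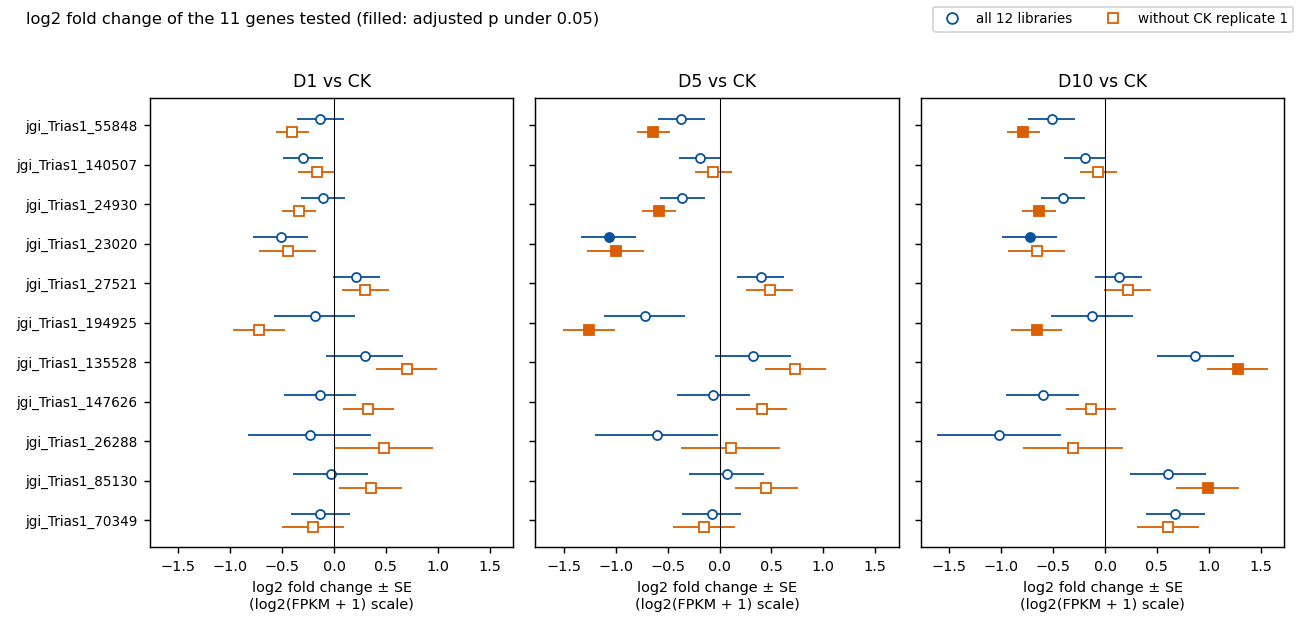
log2 fold change with its SE (on the log2(FPKM + 1) scale) of the 11 genes tested in D1, D5 and D10 against CK, with all 12 libraries (circles) and without CK replicate 1 (squares), filled where the adjusted p was under 0.05. With all 12 libraries only jgi_Trias1_23020 is filled, in D5 and D10, and without CK replicate 1 there are 4 filled squares in D5 and 5 in D10.

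The chitin synthase jgi_Trias1_194925 was low in CK replicate 1 too. It had 12.06, 36.95 and 40.81 FPKM in CK, 23.51, 22.65 and 23.24 in D1, 13.81, 13.20 and 20.99 in D5, and 23.31, 33.30 and 18.20 in D10. CK replicate 1 was the lowest of the 12 libraries, at 0.310 of the mean of the other controls, and the D5 libraries all lay below the D1 libraries. The log2 fold change was -0.72 in D5 (SE 0.39, adjusted p = 0.232) and -0.12 in D10 (adjusted p = 0.837). Without CK replicate 1 it was -1.26 in D5 (SE 0.25, adjusted p = 0.00186) and -0.66 in D10 (adjusted p = 0.0392). D5 against D1 gave -0.53 (adjusted p = 0.638).

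The low chitin synthase jgi_Trias1_135528 had 11.67, 3.76 and 5.23 FPKM in CK, 10.04, 7.90 and 6.06 in D1, 9.93, 6.11 and 8.45 in D5, and 8.51, 13.82 and 15.28 in D10. CK replicate 1 lay within the D10 range, while every treated library was above CK replicates 2 and 3. Replicate 1 was the highest library in CK, D1 and D5 and the lowest in D10. The log2 fold change in D10 against CK was 0.87 (SE 0.37, adjusted p = 0.084), and 1.28 without CK replicate 1 (SE 0.29, adjusted p = 0.00285).

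The chitin synthases jgi_Trias1_140507 and jgi_Trias1_27521 were not called at any dose, with or without CK replicate 1, on the values as deposited. The range of jgi_Trias1_140507 was 234.12 to 327.76 FPKM in D1, 296.81 to 316.74 in D5 and 273.37 to 332.77 in D10, all overlapping the 275.69 to 419.52 FPKM of CK. Its log2 fold change in D10 was -0.20 (SE 0.20, adjusted p = 0.459), and -0.55 with CK replicate 1 left out and the libraries centred on their medians (adjusted p = 0.0222). The range of jgi_Trias1_27521 was 38.01 to 49.14 FPKM in D1, 40.09 to 57.97 in D5 and 33.34 to 52.28 in D10, against 30.23 to 41.15 FPKM in CK. For this gene replicate 1 was the highest library in CK, D1 and D5. Its log2 fold change in D5 was 0.40 (SE 0.23, adjusted p = 0.261), and 0.48 without CK replicate 1 (adjusted p = 0.104).

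The glucan synthase jgi_Trias1_147626 did not pass the test at any dose. It had 420.28, 164.65 and 154.47 FPKM in CK, 276.75, 180.25 and 161.60 in D1, 275.21, 215.86 and 158.92 in D5, and 136.66, 143.41 and 155.76 in D10. CK replicate 1 was 2.63 times the mean of the other controls, and the D10 libraries all lay below the D5 libraries. In CK, D1 and D5 the FPKM fell from replicate 1 to replicate 3, while in D10 it rose. Leaving out CK replicate 1 alone leaves replicate 1 of D1 and D5 in the fit. The log2 fold change in D10 was -0.60 against CK (SE 0.35, adjusted p = 0.204) and -0.54 against D5 (SE 0.35, adjusted p = 0.396). Without CK replicate 1 the D10 value against CK was -0.14 (SE 0.24, adjusted p = 0.661). With libraries centred on their medians it was -0.86 with CK replicate 1 (adjusted p = 0.0168) and -0.62 without it (adjusted p = 0.0311), so the call depends on the scaling. Centred and without CK replicate 1, D10 against D5 gave -0.64 (adjusted p = 0.0352).

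None of the 3 genes with weak matches passed the test over all 12 libraries. The gene jgi_Trias1_26288 had 231.83, 55.89 and 48.21 FPKM in CK, 153.80, 60.40 and 41.02 in D1, 94.50, 58.02 and 31.75 in D5, and 36.89, 42.80 and 45.81 in D10. Here too the FPKM fell from replicate 1 to replicate 3 in CK, D1 and D5 and rose in D10. All D10 libraries lay below all CK libraries, but the log2 fold change was -1.02 with an SE of 0.59 (adjusted p = 0.200), and -0.31 without CK replicate 1 (adjusted p = 0.607). The gene jgi_Trias1_85130 had 4.03, 4.88 and 5.87 FPKM in D10, against 5.56, 2.24 and 1.71 FPKM in CK, and replicate 1 was its highest library in CK, D1 and D5. Its log2 fold change was 0.61 (SE 0.36, adjusted p = 0.212), and 0.99 without CK replicate 1 (SE 0.30, adjusted p = 0.0152), a call that was lost when the libraries were also centred on their medians. The gene jgi_Trias1_70349 had 4.32, 5.07 and 2.81 FPKM in D10, against 1.83, 1.67 and 2.98 FPKM in CK, a log2 fold change of 0.68 (SE 0.28, adjusted p = 0.080).

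Groups that did not overlap were counted as well. Over all 12 libraries 0 genes in D1 lay wholly on 1 side of CK (12.5% of all genes higher, 7.73% lower). In D5, jgi_Trias1_23020 lay wholly below CK, beside 12.5% of all genes, and 0 lay wholly above, beside 19.4%. In D10, jgi_Trias1_23020 and jgi_Trias1_26288 did, beside 17.2% of all genes, and 0 lay wholly above, beside 26.5%. Without CK replicate 1, 1 gene lay wholly above CK and 2 wholly below in D1 (32.9% and 14.2% of all genes), 3 above and 4 below in D5 (44% and 19.6%), and 2 above and 5 below in D10 (48.8% and 22.9%). Between doses, 0 of the 11 genes were called in D5 against D1 (2.03% of all genes higher, 0.336% lower) or in D10 against D5 (6.74% higher, 3.15% lower). At an unadjusted p under 0.05, the counts were 0 (13.4% of all genes) and 1 (23.9%), and 2 (25%) and 3 (36.8%) when CK replicate 1 was left out of the fit. The D5 libraries lay wholly below D1 for jgi_Trias1_194925, beside 10.8% of all genes, and wholly above for 0 genes, beside 17.8%. The D10 libraries lay wholly below D5 for jgi_Trias1_55848 and jgi_Trias1_147626, beside 15% of all genes, and wholly above for 0 genes, beside 25.4%.

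Summed over the 8 chitin synthases, expression was 1280 ± 232 FPKM in CK, 1110 ± 163 in D1, 998 ± 44.6 in D5 and 972 ± 45.1 in D10 (SD, n = 3 each), and 1373 ± 236 FPKM in CK without replicate 1 (SD, n = 2). These sums are descriptions and were not tested. The 3 highest genes made up 86.4% to 90.3% of the sum in every library. The motor pair made up 53.9% to 57.4% of it in D10, 58.2% to 59.5% in D5 and 59.7% to 65.7% in D1, against 48.5%, 66.5% and 65.4% in CK replicates 1, 2 and 3. The glucan synthase jgi_Trias1_147626 stood at 0.144 to 0.152 of the chitin synthase sum in D10, against 0.384, 0.136 and 0.1003 in CK replicates 1, 2 and 3. It stood at 0.132 to 0.235 in D1 and 0.155 to 0.270 in D5, so the ratio did not follow the dose. These sums and ratios were chosen after the values were seen.

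**Figure D3:**
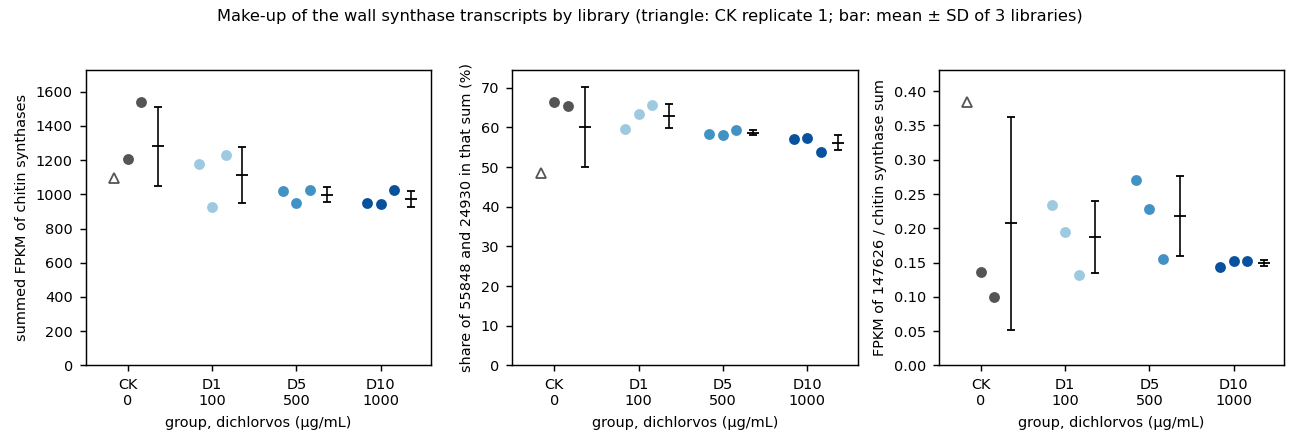
Summed FPKM of the 8 chitin synthases, the share (%) of the motor pair jgi_Trias1_55848 and jgi_Trias1_24930 in that sum, and the FPKM of the glucan synthase jgi_Trias1_147626 divided by that sum, per library of CK, D1, D5 and D10 (linear axes from 0), with the mean and SD of the 3 libraries as a bar. CK replicate 1 (triangle) has the lowest motor pair share, 48.5%, and the highest glucan synthase ratio, 0.384, of the 12 libraries.

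The genes whose pattern was most like that of 2 leading synthases were found by Pearson's r of log2(FPKM + 1) over the 12 libraries, as a description of libraries that share groups. For jgi_Trias1_55848 these were jgi_Trias1_154351 (r = 0.963), described as origin recognition complex subunit 2, jgi_Trias1_242762 (r = 0.949) and jgi_Trias1_59512 (r = 0.943), described as a sorbose reductase. All 3 were highest in CK replicate 3. The first of them, jgi_Trias1_154351, averaged only 1.58 FPKM (0.12 to 6.41), near the filter of 1. For the glucan synthase jgi_Trias1_147626 they were jgi_Trias1_64288 (r = 0.983), jgi_Trias1_128924 (r = 0.981), described as a molybdenum cofactor sulfurtransferase, and jgi_Trias1_181352 (r = 0.978). All 3 were highest in CK replicate 1.

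The precursor of chitin is made from fructose 6-phosphate in a short pathway, and 6 genes were listed for it. In D10 against CK, 3 of the 6 rose and 0 fell, beside 24.3% and 13.2% of all genes. Leaving out CK replicate 1 gave 3 higher and 1 lower, beside 38.3% and 16.3%, the lower one being the N-acetyltransferase jgi_Trias1_129594 (log2 fold change -0.89, adjusted p = 0.000434). The phosphoacetylglucosamine mutase jgi_Trias1_61557 had 65.79, 71.41 and 57.76 FPKM in D10, against 43.99, 37.67 and 37.99 FPKM in CK (log2 fold change 0.69, SE 0.17, adjusted p = 0.00776), a call lost on centring (adjusted p = 0.078). The gene jgi_Trias1_72015, described as a glucosamine-phosphate N-acetyltransferase, had 17.40, 12.97 and 15.55 FPKM in D10, against 5.44, 6.35 and 3.35 FPKM in CK (log2 fold change 1.46, adjusted p = 0.00132). The gene jgi_Trias1_94016 had 44.55, 77.53 and 67.01 FPKM in D10, against 7.42, 5.90 and 6.07 FPKM in CK (log2 fold change 3.07, adjusted p = 1.74e-06), but its match to a second phosphoacetylglucosamine mutase had a bit score of only 72.0. The first enzyme of the pathway, the aminotransferase jgi_Trias1_30842, had 901.25, 550.86 and 984.74 FPKM in D10, against 573.84, 1072.17 and 1133.40 FPKM in CK (adjusted p = 0.673). Of the 2 genes listed for UDP-glucose supply, 0 passed the test in D10.

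A list of 3 genes whose best protein match is named chitin synthase activator was made after the annotation was read. Of these, 0 passed in D10, beside 24.3% of all genes higher and 13.2% lower. In D5, 0 rose and 1 fell, beside 13.5% and 7% of all genes. The lower one was jgi_Trias1_230973 (log2 fold change -0.85, adjusted p = 0.0258).

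Genes described as enzymes that trim or break down chitin and glucan numbered 75, of which 42 passed the filter. Many of these descriptions rest on weak matches, so the counts are of genes so described. The highest of the list, jgi_Trias1_139914 (mean 1292 FPKM), had a bit score of only 59.7. The genes named below had bit scores of 478 to 1059. In D10 against CK, 10 of the 42 genes tested rose and 7 fell, beside 24.3% and 13.2% of all genes, so the share that rose was near that of all genes. There were 16 higher and 12 lower without CK replicate 1, beside 38.3% and 16.3%. The chitinase jgi_Trias1_41515 had 20.84, 31.36 and 20.04 FPKM in D10, against 0.66, 1.99 and 0.54 FPKM in CK (log2 fold change 3.64, adjusted p = 1.79e-06). The chitinase jgi_Trias1_72752, named CHI42, gave 3.37 (adjusted p = 9.32e-08). The hexosaminidase jgi_Trias1_157721 had 24.70, 33.95 and 33.07 FPKM in D10, against 80.92, 296.24 and 393.25 FPKM in CK (log2 fold change -2.76, adjusted p = 0.001), and the chitinase jgi_Trias1_27807 gave -3.20 (adjusted p = 0.00635).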

How the data were processed

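The authors prepared the deposited FPKM values per library, and the submitters' processing notes name BWA, Bowtie and RSEM without versions. FPKM are scaled to gene length and library size, so the absolute read depth is unknown and no counting interval could be given. Precision is limited by 3 libraries a group. The 8916 of 11647 genes that averaged 1 FPKM or more were tested with limma 3.58.1 in R 4.3.3 on log2(FPKM + 1) with an intensity trend, the 4 groups in 1 fit, with p-values adjusted by Benjamini-Hochberg over all genes tested and a threshold of 0.05. Fold changes on this scale understate those of low genes. The exact permutation test of 1 gene, two-sided, cannot go below p = 0.1 with 3 libraries against 3. Every gene found by the rule is named or counted. Of each pathway list reported, at most 4 genes called in D10 against CK were named by size of change, and the aminotransferase, jgi_Trias1_129594 and the activator jgi_Trias1_230973 were chosen after their values were seen. For the highest gene of each class of synthase, the 3 genes most alike in pattern were named. A list of genes for cell wall signalling is not reported here. The genes and lists were chosen with earlier results of these data known.

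The NOISeq rule of the study (probability over 0.8, log2 ratio beyond 1) was rewritten from its definition in Python 3.11.15 with 0 replaced by 0.01. In all, 3 definitions of the replicate noise were tried. The later 2 were written after counts over all genes had been set beside the study's totals, and with CK replicate 1 left out the last came nearest to them, so that nearness is no check of the rewriting. The first definition, which leaves out replicate pairs at 0 in both libraries, is the one used here, and the other 2 are given as alternatives chosen after seeing the data. All 3 called 0 of the 12 genes. Other alternatives were another pseudocount, other filters, centring on library medians, no trend, the 2 groups alone, a replicate block, and leaving out each library. Deviations from group means of same-numbered libraries correlated over 0.1 in 3 of 3 pairs for D1 and CK (0.17 to 0.50). They did so in 2 of 3 pairs for D5 and CK (-0.01 to 0.33) and for D5 and D1 (0.06 to 0.41). The labels do not say whether the numbers pair the libraries. The main fit was not paired, so its p-values leave out any pairing among CK, D1 and D5.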

Additional observations from a re-analysis of the deposited data

How the results depend on the processing

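The counts of called genes among the 11 tested, which include those with weak matches, were small and moved with the processing. The cause was not tested. Leaving out 1 library at a time gave 0 to 4 genes in D5 against CK, 0 to 5 in D10 against CK and 0 to 5 in the F-test. The highest counts all came without CK replicate 1, where more of all genes were called too. The shares of all genes were then 29.4% higher and 12% lower in D5, 38.3% and 16.3% in D10, and 56.9% in the F-test. The 5 genes in D10 included jgi_Trias1_85130, whose match was weak. In D10 the count of 1 became 0 with no filter, with no intensity trend and with only the groups compared. For these settings the share of all genes was not counted. The count was also 0 with the added demand of more than 2-fold, beside 19.2% of all genes higher and 7.81% lower. It became 2 with libraries centred on their medians, beside 19.6% and 22.7%. With CK replicate 1 left out and libraries centred, the counts were 3 in D1, 4 in D5 and 7 in D10 against CK. Beside them, 7.27% of all genes were higher and 10.8% lower in D1, 15.7% and 23.5% in D5, and 23.3% and 30.6% in D10. The same setting gave 1 lower in D10 against D5, beside 12.3% of all genes higher and 11.6% lower. It gave 5 in the F-test, for which the share of all genes was not counted. The NOISeq rule gave 0 in D5 and in D10 under its first noise definition, and 0 with every replicate pair kept and with genes at 0 in both groups dropped, both of them chosen after seeing the data.

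With the replicate number as a block the counts were the same as without it, 1 in D5, 1 in D10 and 1 in the F-test, and jgi_Trias1_23020 gave -1.07 in D5 and -0.73 in D10. The share of all genes called with the block was not counted. In D1 against CK, where same-numbered libraries correlated over 0.1 in 3 of 3 pairs, the block gave 0 genes, as did the fit without it. The block changed no other call. The block was a replicate effect shared by all groups, so it was not a paired test of D1 against CK alone. Same-numbered libraries correlated over 0.1 in 2 of 3 pairs for D5 and CK and for D5 and D1, and in 0 of 3 for D10 and CK. Over all 18 pairs the values ran from -0.32 to 0.50, and 7 of 12 libraries were closest to their own number.

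Among 33 log2 fold changes against CK, 14 changed sign under at least 1 alternative. In these 14, neither the main value nor any value of the other sign was past the threshold. Some of them did pass with their main sign in other settings. In D10, jgi_Trias1_194925 passed without CK replicate 1 (adjusted p = 0.0392, limma). In D1, jgi_Trias1_55848, jgi_Trias1_24930 and jgi_Trias1_194925 passed with that library left out and libraries centred (adjusted p = 0.0186, 0.0263 and 0.0160). With CK replicate 1 left out and libraries centred, jgi_Trias1_27521 gave -0.27 in D10, jgi_Trias1_147626 gave 0.0373 in D1 and 0.0174 in D5, jgi_Trias1_26288 gave 0.19 in D1 and jgi_Trias1_85130 gave 0.0606 in D1. With centring alone jgi_Trias1_27521 gave -0.13 in D10 and jgi_Trias1_85130 gave -0.0941 in D5. Leaving out 1 library at a time, D1 against CK ran from -0.40 to 0.0748 for jgi_Trias1_55848, -0.34 to 0.11 for jgi_Trias1_24930, -0.72 to 0.12 for jgi_Trias1_194925, -0.0052 to 0.70 for jgi_Trias1_135528, -0.39 to 0.33 for jgi_Trias1_147626, -0.77 to 0.48 for jgi_Trias1_26288, -0.29 to 0.35 for jgi_Trias1_85130 and -0.24 to 0.0435 for jgi_Trias1_70349. D5 against CK ran from -0.31 to 0.40 for jgi_Trias1_147626, -1.02 to 0.11 for jgi_Trias1_26288, -0.19 to 0.45 for jgi_Trias1_85130 and -0.26 to 0.10 for jgi_Trias1_70349. D10 against CK ran from -0.0616 to 0.26 for jgi_Trias1_27521 and -0.66 to 0.18 for jgi_Trias1_194925.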
